A study of Homo sapiens with 2 samples.

Results

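The mitochondrial genome of HEK293T cells was examined for its protein-coding and tRNA genes in PAR-CLIP libraries of the Ku complex. The members are all features on chrM of the count tables other than the rRNA features, a rule that rests on annotation and uses no measured value. It returned 41 of the 63494 features. By position, order and length, 39 of these features belonged to 35 RefSeq genes, namely 13 mRNA genes and 22 tRNA genes. A further 2 features, CHM13_G0057514 and LOFF_G0002906, lay on the minus strand inside MT-CO1 and MT-ND4L and corresponded to no RefSeq mitochondrial gene.

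HEK293T is an established human kidney line transformed with adenoviral DNA and SV40 large T. In the SFB-Ku80 group the cells expressed Ku80 with SBP and tandem FLAG tags, and in the control group, SFB empty vector (the vector control below), the tags alone. The labels describe stable expression of both constructs, whereas the methods of the study name a vector for transient transfection of Ku80, and how these cells were made was not resolved here. In PAR-CLIP (photoactivatable ribonucleoside-enhanced crosslinking and immunoprecipitation) RNA is crosslinked to protein in living cells, and here all cells received 6SG (6-thioguanosine, a photoreactive nucleoside) at 0.1 mM and 365 nm UV at 0.4 J/cm2, which couples RNA to the proteins it touches, and RNA was recovered over streptavidin resin and then FLAG resin. Each group had 1 library. No difference between the libraries therefore has a replicate check, no p-value is given, and every interval below covers counting error only. Counts on features tally mates of a pair and reads placed at several loci separately. All intervals from such counts, for shares, ratios and levels, are therefore narrower than the true counting error, and so is their separation less certain. The libraries held 19775629 counts on features (vector control) and 17892815 (SFB-Ku80), from 29863974 and 22173753 read pairs, and 20.3% and 6.51% of the pairs mapped uniquely to 1 feature.

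The human mitochondrial genome is a small circle that is transcribed from both strands as long polycistronic RNA. tRNAs lie between most of the mRNAs and rRNAs, and their excision by RNase P and RNase Z frees the neighbouring transcripts. Most genes are transcribed in the plus direction of the reference, from the heavy strand as it is usually named, and MT-ND6 and a minority of tRNAs in the minus direction. In the annotation of CHM13 draft 1.1, to which all coordinates here refer and whose chrM numbering starts at the first base of MT-TF, 12 mRNA and 14 tRNA genes were on the plus strand and MT-ND6 and 8 tRNA genes on the minus strand. All mitochondrial mRNAs encode membrane subunits of the respiratory chain or of ATP synthase. Ku70/80 is known as the DNA end-binding heterodimer of non-homologous end joining, and the study asked which RNA is purified with it. Markers of the cell line and XRCC5, which encodes Ku80, were not examined here, because names were used only for chrM and the start of chromosome 1.

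The mitochondrial mRNAs and tRNAs took a smaller share of the counts in SFB-Ku80 than in the vector control. The 35 genes together had 129444 counts in the vector control, or 0.655% of the feature total (0.651 to 0.658%, Wilson, 95% confidence). In SFB-Ku80 they had 8793 counts, or 0.0491% (0.0481 to 0.0502%). The share in SFB-Ku80 was thus 0.0751 times that in the vector control, with a 95% log-normal interval of 0.0735 to 0.0767 that takes each count as independent. In such bulk RNA, fewer cells of a type and less RNA per cell cannot be told apart, and a share does not give the amount of RNA that each purification recovered. In uniquely mapped pairs the shares were 0.941% and 0.261%, and the vector control was 3.61 times as high. The size of this difference depends on what else is counted, because the 45S units (219 annotated copies of the nucleolar rRNA region) and a pair of chromosome 17 features hold a large part of the SFB-Ku80 counts. With those left out of the denominator, the share in SFB-Ku80 was 0.203 times that in the vector control, against 0.0751 with all counts.

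A comparison within chrM leaves counts on nuclear features out of the denominator, although multimapping reads from nuclear copies of mitochondrial sequence can still enter it. Of all counts on chrM, including MT-RNR1 and MT-RNR2, the 35 genes held 5.14% in the vector control (5.11 to 5.16%) and 3.41% in SFB-Ku80 (3.35 to 3.49%), the rest being rRNA. For the mRNA genes alone the values were 5.11% and 3.31%, and for the tRNA genes 0.0282% and 0.103%. Within the chrM counts the mRNA genes were therefore a smaller part in SFB-Ku80. In uniquely mapped pairs on chrM the mRNA genes held 5.13% in the vector control and 3.05% in SFB-Ku80. MT-TM alone made up 57.6% of the tRNA counts in the vector control and 83.1% in SFB-Ku80, and without it the tRNA genes held 0.0119% and 0.0175% of the chrM counts, from 301 and 45 counts.

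Not every mRNA gene could be counted. Reads that overlap several features were not assigned, and 4 mRNA genes carried 2 features each. MT-CO2 was present as CHM13_G0057517 and CHM13_G0057518, both from 7009 to 7692 on the plus strand. MT-ATP8 was listed in duplicate from 7789 to 7995 and MT-ATP6 from 7950 to 8630. No base of these 3 genes was covered by a single feature, and all their features had 0 counts in both libraries, in uniquely mapped pairs as well. These zeros are set by the annotation and give no limit on the RNA. MT-CO3 had CHM13_G0057525 from 8630 to 9413 and a shorter feature inside it, which left 237 of its 784 bases for counting. In MT-CO1, CHM13_G0057514 removed 89 of 1542 bases, and MT-ND4L, which overlaps both MT-ND4 and LOFF_G0002906, kept 216 of 297. Counts per kilobase are therefore given for the bases that a feature did not share, per 1000000 counts outside the 45S units.

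**Figure D1:**
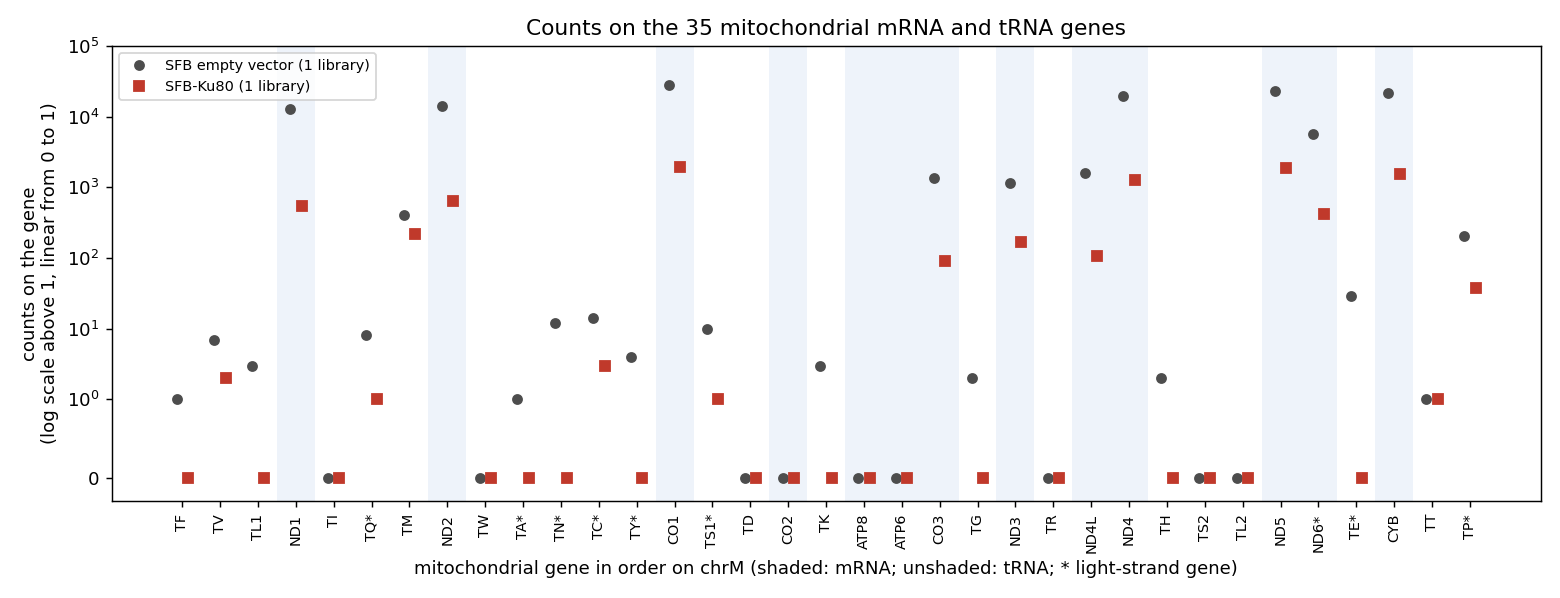
Raw counts (vertical axis, logarithmic above 1) on each of the 35 mitochondrial mRNA and tRNA genes in chrM order, for the 1 SFB empty vector library (circles) and the 1 SFB-Ku80 library (squares). The 10 countable mRNA genes lie between 1164 and 28068 counts in the vector control and between 90 and 1909 in SFB-Ku80, and most tRNA genes are at or near 0.

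MT-CO1 and MT-CO3 encode core subunits of cytochrome c oxidase, the terminal enzyme of the respiratory chain. MT-CO1 (CHM13_G0057511, 5327 to 6868, plus strand) had 28068 counts in the vector control and 1909 in SFB-Ku80. MT-CO3 had 1351 and 90. On a scale that divides by the counts outside the 45S units and adds a pseudocount of 1, the log2 ratio of SFB-Ku80 to the vector control was -3.47 for MT-CO1 and -3.49 for MT-CO3. On the same scale the median over the 17478 features whose counts summed to 100 or more was -1.04, so ratios are also given relative to this median gene. There MT-CO1 stood at -2.43 (95% counting interval -2.50 to -2.36) and MT-CO3 at -2.45 (-2.75 to -2.14). The pair, whose intervals overlap, had like ratios although their counts differed greatly.

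MT-CYB, the only mitochondrially encoded subunit of the cytochrome bc1 complex, lies at 14170 to 15310 on the plus strand. It had 21585 counts in the vector control and 1540 in SFB-Ku80. Its log2 ratio relative to the median gene was -2.36 (-2.43 to -2.29), within the interval of MT-CO3 and overlapping that of MT-CO1.

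The other 7 countable mRNAs encode subunits of NADH dehydrogenase, the complex through which electrons from NADH enter the chain. MT-ND1 (2730 to 3685) had 12913 counts in the vector control and 535 in SFB-Ku80, and MT-ND2 (3893 to 4934) had 14087 and 633. These were the lowest ratios of the countable mRNAs, at -3.14 (-3.27 to -3.02) and -3.03 (-3.14 to -2.91) relative to the median gene. In counts their intervals overlap each other and those of no other countable mRNA, and among the 17478 features they ranked at percentiles 1.67 and 1.95 of the ratio. In uniquely mapped pairs the interval of MT-CO3 (-2.06 to -0.93) overlaps those of MT-ND1 (-2.38 to -2.01) and MT-ND2 (-2.20 to -1.87). MT-ND1 and MT-ND2 are the first mRNA genes after the rRNA genes in the plus-strand order.

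MT-ND4 and MT-ND4L are translated from 1 bicistronic mRNA. MT-ND4 (10183 to 11560) had 19531 counts in the vector control and 1264 in SFB-Ku80, and MT-ND4L (9893 to 10189) had 1587 and 106. Relative to the median gene they stood at -2.50 (-2.58 to -2.42) and -2.45 (-2.73 to -2.16), with overlapping intervals. MT-ND5 (11760 to 13571), the longest mRNA gene, had 22779 and 1866 counts, a relative log2 ratio of -2.16 (-2.23 to -2.09). The minus-strand gene MT-ND6 (13572 to 14096) had 5669 and 418 counts and a value of -2.31 (-2.45 to -2.17), overlapping the interval of MT-ND5. These counts do not separate the strands, and in the strand columns described below pairs on MT-ND5 and MT-CYB were also mostly read as minus strand.

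MT-ND3 had the highest ratio of the countable mRNAs. It lies at 9482 to 9827 and had 1164 counts in the vector control and 166 in SFB-Ku80. Relative to the median gene the log2 ratio was -1.36 (-1.59 to -1.12), an interval that overlaps that of no other countable mRNA. Unscaled to the median, the mRNAs ranged from 5.28-fold (MT-ND3) to 18.2-fold (MT-ND1) lower in SFB-Ku80.

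Counting a gene as lower when it was at least 2-fold below the median gene, all 10 countable mRNA genes were lower in SFB-Ku80 and none was higher. Over all features tested, 25.0% were lower by this measure and 26.7% higher. The median of the 10 was -2.44 relative to the median gene, while that of all features is 0 by construction. These genes passed the limit of 100 counts mainly through the vector control, although each also had at least 90 counts in SFB-Ku80, so the count is a description. In uniquely mapped pairs, 9 of the 10 were at least 2-fold lower, against 19.0% of the 10205 features with at least 100 such pairs. MT-ND3 was the exception, with 530 pairs in the vector control, 75 in SFB-Ku80 and a log2 ratio of -0.38 (-0.73 to -0.03) relative to the median feature. The other 9 ranged from -2.20 for MT-ND1 to -1.10 for MT-ND5, and for 3 of them the interval reaches across the 2-fold limit, namely MT-ND5 (-1.21 to -0.99), MT-CO3 (-2.06 to -0.93) and MT-ND4L (-1.84 to -0.93). The reference also moves with depth of counting, since the median of features with at least 1000 counts was -1.77. Against it the median mRNA stood at -1.71 and 9 of the 10 were at least 2-fold lower, MT-ND3 again not, where 23.4% of all features at this limit were.

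**Figure D2:**
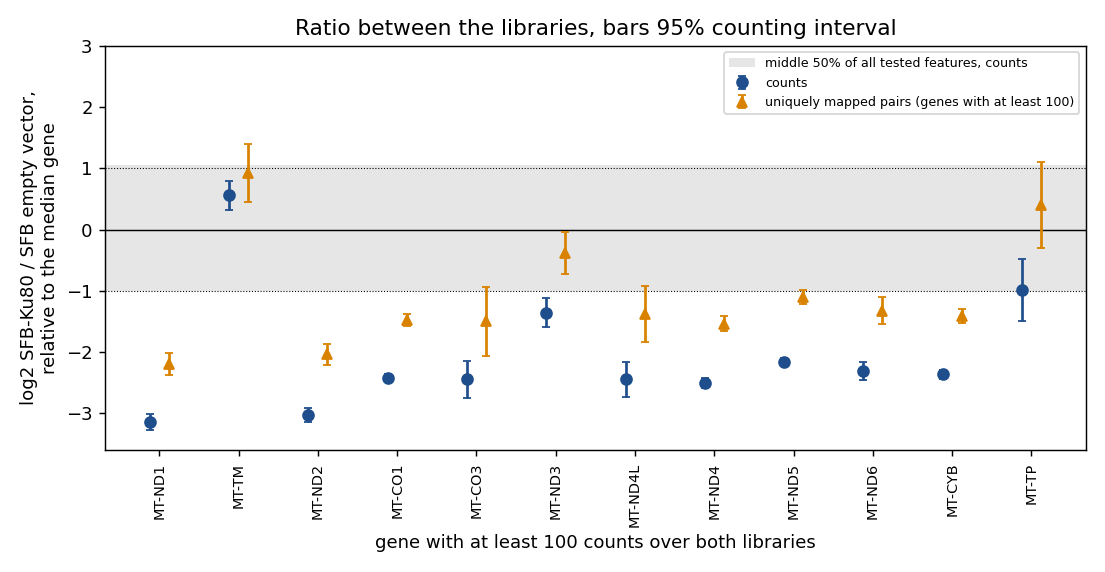
log2 ratio of SFB-Ku80 to the vector control relative to the median gene (vertical axis) for the 12 mitochondrial genes with a summed count of 100 or more, from counts (circles) and uniquely mapped pairs (triangles), with 95% counting intervals as bars, the middle 50% of all tested features as a grey band and dotted lines at a 2-fold difference. In counts the 10 mRNAs lie from -3.14 to -1.36, below the band, and MT-TM at 0.56 lies above 0.

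The chrM rRNA genes were lower in SFB-Ku80 too. MT-RNR1 had a relative log2 ratio of -1.32 and MT-RNR2 of -2.05, so that 9 of the 10 mRNAs were below both rRNAs and the interval of MT-ND3 held the value of MT-RNR1. Nuclear genes that work with the mitochondrial ones were examined where the supplementary table of the study pairs feature IDs with names, which is the start of chromosome 1. The list held 8 genes, all with a summed count of 100 or more. They passed this limit mainly through the vector control, UQCRHL with 138 counts there and 22 in SFB-Ku80, so the following count is a description. Of the 8 genes, 5 were at least 2-fold lower than the median gene and 3 were not, where 25.0% of all tested features were, and none was higher. ATP5IF1, the inhibitor of ATP synthase, had 2018 counts in the vector control and 145 in SFB-Ku80 and stood lowest at -2.34. UQCRH, a hinge subunit of the bc1 complex, was at -2.05, MRPL20 and MRPL37 of the large mitochondrial ribosomal subunit at -1.88 and -1.38, and UQCRHL, a close copy of UQCRH with which it can share reads, at -1.16. The others were MRPS15 of the small mitochondrial ribosomal subunit at -0.85, the succinate dehydrogenase subunit SDHB at -0.75 and NDUFS5 of NADH dehydrogenase at -0.53. In uniquely mapped pairs 7 of the 8 had a sum of 100 or more, and ATP5IF1 (-1.72), UQCRH (-1.35) and MRPL20 (-1.16) were still at least 2-fold lower than the median feature, where 19.0% of all features were, while NDUFS5 at 0.47 was above it. In counts the median of the list was -1.27, against -2.44 for the mitochondrial mRNAs, and no member of the list reached the values of MT-ND1 or MT-ND2.

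The mRNAs were ordered by their level per length in each library. Mates of a pair and reads placed at several loci are counted separately, so these intervals are narrower than the true counting error. In the vector control MT-CO1 was highest at 1006 counts per unshared kilobase per 1000000 (exact Poisson interval 994 to 1018) and MT-CYB next at 985 (972 to 998), with overlapping intervals. MT-ND4 followed at 742, MT-ND2 at 704 and MT-ND1 at 703, the last pair again overlapping. MT-ND5 at 655, MT-ND6 at 562, MT-ND4L at 383, MT-CO3 at 297 and MT-ND3 at 175 had intervals that did not overlap in counts. In uniquely mapped pairs those of MT-CO3 (263 to 319) and MT-ND3 (232 to 276) did overlap. MT-ND6, MT-ND4L, MT-CO3 and MT-ND3 also had the fewest unshared bases, at 525, 216, 237 and 346. Reads that touch a neighbouring feature were not assigned, and the part of this in the low levels was not tested. In uniquely mapped pairs, scaled in the same way, MT-ND6 at 794 (764 to 826) was instead above MT-ND5 at 717 (701 to 733), so the order of these neighbours changed with the way of counting. In counts the span from the highest to the lowest was 5.74-fold.

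In SFB-Ku80 the levels in counts were closer together, with a span of 3.55-fold. In uniquely mapped pairs the levels ran from 1463 (MT-CYB) to 253 (MT-ND3) in the vector control. In SFB-Ku80 they ran from 445.5 (MT-CYB) to 82.4 (MT-CO3), so the narrowing was nearly absent in uniquely mapped pairs. In counts MT-CYB stood at 93.0 (88.4 to 97.8) and MT-CO1 at 90.5 (86.5 to 94.7), again with overlapping intervals. MT-ND5 came next at 71.0 (67.8 to 74.3), followed by MT-ND4 at 63.5 (60.1 to 67.1). Uniquely mapped pairs gave the opposite order, with MT-ND4 at 314 (289 to 340.1) and MT-ND5 at 270.2 (250.2 to 291), whose intervals overlap. MT-ND6 at 54.9 overlapped MT-ND4 but stood above MT-ND2 at 41.9 and MT-ND1 at 38.6, which overlapped each other. MT-ND1 and MT-ND2 were thus below MT-ND5 and MT-ND6 here and above them in the vector control, in uniquely mapped pairs as well, although the intervals of MT-ND2 and MT-ND6 overlap there. MT-ND4L at 33.8, MT-ND3 at 33.1 and MT-CO3 at 26.2 were lowest, with intervals that overlapped among them.

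Mitochondrial tRNAs carry the amino acids for the translation of these mRNAs inside the organelle. Most of their genes had almost no counts. MT-TI, MT-TW, MT-TD, MT-TR, MT-TS2 and MT-TL2 had 0 counts in both libraries. These zeros give no limit on the RNA, since reads that touch a neighbouring feature were not assigned, and the strand columns held 13 pairs on MT-TW and 5 each on MT-TI and MT-TD in the vector control. A further 14 genes had summed counts below 100, in all 97 counts in the vector control and 8 in SFB-Ku80. Among them MT-TE had 29 counts in the vector control and 0 in SFB-Ku80, MT-TC 14 and 3, MT-TN 12 and 0, and MT-TV 7 and 2. MT-TS1 had 10 and 1, MT-TQ 8 and 1, MT-TY 4 and 0, and both MT-TL1 and MT-TK 3 and 0. MT-TG and MT-TH had 2 and 0, MT-TF and MT-TA 1 and 0, and MT-TT 1 in each library. The features are 59 to 75 bases long and most adjoin another gene, so these counts do not measure tRNA abundance.

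Only MT-TM and MT-TP passed the limit of 100 counts. MT-TM (CHM13_G0057503, 3825 to 3892, plus strand), the methionine tRNA that serves both initiation and elongation in mitochondria, had 409 counts in the vector control and 221 in SFB-Ku80. Its log2 ratio relative to the median gene was 0.56 (0.33 to 0.80), above all countable mRNAs, although MT-ND2, which begins at the next base, stood at -3.03. In uniquely mapped pairs MT-TM had 139 and 49, a relative log2 ratio of 0.93 (0.46 to 1.40). It held 2.94 counts per uniquely mapped pair in the vector control and 4.51 in SFB-Ku80, where MT-ND2 had 2.10 and 2.10. The part of reads placed at several loci in this difference was not tested.

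MT-TP (15379 to 15446, minus strand), the proline tRNA, had 204 counts in the vector control and 37 in SFB-Ku80. It stood at -0.99 (-1.49 to -0.48) in counts and at 0.40 (-0.31 to 1.11) in uniquely mapped pairs, where it had 82 and 20. The interval in uniquely mapped pairs lies on both sides of the median, so no direction is given for MT-TP there. Neither tRNA reached 2-fold in counts. The tRNA genes together had 710 counts in the vector control and 266 in SFB-Ku80, and without MT-TM 301 and 45. Their share of all counts in SFB-Ku80 was 0.414 times (0.360 to 0.477) that in the vector control, but in uniquely mapped pairs, with 230 and 70, it was 1.28 times (0.978 to 1.67), so no direction is given for the tRNAs as a group.

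Nuclear copies of mitochondrial sequence can share reads with chrM. In the named part of chromosome 1 there were 4 such pseudogenes. MTCYBP45 had 4 counts in the vector control and 0 in SFB-Ku80, MTCO2P34 0 and 2, and MTND1P34 and MTND2P29 had none in either library. In the mRNA genes the counts per uniquely mapped pair were between 2.09 and 2.28 in both libraries for 7 of the 10, and higher for MT-ND5 at 2.90 and 2.76, MT-ND4L at 2.72 and 2.59 and MT-CO3 at 3.25 and 3.33.

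The strand columns give the strand to which uniquely mapped pairs were assigned. A pair that overlaps features on opposite strands enters these columns for both, as sense for the feature on its own strand and antisense for the other. Across features with 100 or more stranded pairs, a median of 82.2% in the vector control and 75.6% in SFB-Ku80 lay in the second column, and for MT-RNR1 it was 89.0% and 89.8%. The second column was therefore read as sense, a reading taken from these values since the library kit is not stated in the sources used here, and strand was kept only in part. On chrM, pairs read in the orientation of MT-ND6 are called minus-strand RNA below. Some of them can be pairs in the wrong column, and their part was not tested.

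The share of minus-strand RNA differed widely along chrM in both libraries. In the vector control it was 11.0% on MT-RNR1 and 14.7% on MT-RNR2. On MT-ND1 it was 32.8% (95% Wilson interval 31.7 to 34.0%), on MT-ND2 30.3%, on MT-CO1 23.7% and on MT-CO3 16.1%. It was 31.7% on MT-ND3, 29.8% on MT-ND4L and 38.1% on MT-ND4. Minus-strand RNA was the larger part on the 3 mRNA genes after these, which are neighbours. On MT-ND5 it made up 69.5% (68.5 to 70.4%) of 9548 pairs, on MT-ND6 74.3% (73.0 to 75.6%) of 4214 and on MT-CYB 60.3% (59.4 to 61.3%) of 10242. Only for MT-ND6 is this the sense strand, so most pairs on MT-ND5 and MT-CYB were antisense to the gene. Pairs across the border of MT-ND5 and MT-ND6 are in the totals of both, so the shares of these neighbours are not independent. Without regard to strand, 7858 uniquely mapped pairs were assigned to MT-ND5 and 2524 to MT-ND6. Unstranded counts of MT-ND5 and MT-CYB, as used for the levels and ratios above, do not separate pairs read as sense from those read as antisense.

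The same genes stood out in SFB-Ku80. The minus-strand share was 70.5% (67.3 to 73.5%) of 827 pairs on MT-ND5, 79.2% (74.5 to 83.2%) of 336 on MT-ND6 and 61.9% (58.3 to 65.4%) of 719 on MT-CYB. It was 51.8% (47.8 to 55.8%) of 595 pairs on MT-ND4 and 52.0% (40.9 to 62.9%) of 75 on MT-ND3, against 38.1% and 31.7% in the vector control. The totals of MT-ND5 and MT-ND6 again share the pairs across their border. Without regard to strand, 677 and 186 pairs were assigned to them in SFB-Ku80. Of the named mitochondrial genes with at least 100 stranded pairs, 5 of 15 had a sense share under 50% in the vector control, where 10.7% of all such features did. These were MT-ND5, MT-CYB and the minus-strand tRNA genes MT-TQ, MT-TY and MT-TS1, which adjoin plus-strand genes. Without regard to strand these tRNA genes had 0, 1 and 0 uniquely mapped pairs. They reached the limit almost wholly through pairs that also overlap a feature on the other strand. In SFB-Ku80 a sense share under 50% was found for 3 of 7, namely MT-ND4, MT-ND5 and MT-CYB, and for 27.0% of all such features. With the features that match no RefSeq gene, CHM13_G0057514 and LOFF_G0002906, the counts were 7 of 17 and 4 of 8. Those features had 0 pairs without regard to strand in either library, so the counts are a description.

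**Figure D3:**
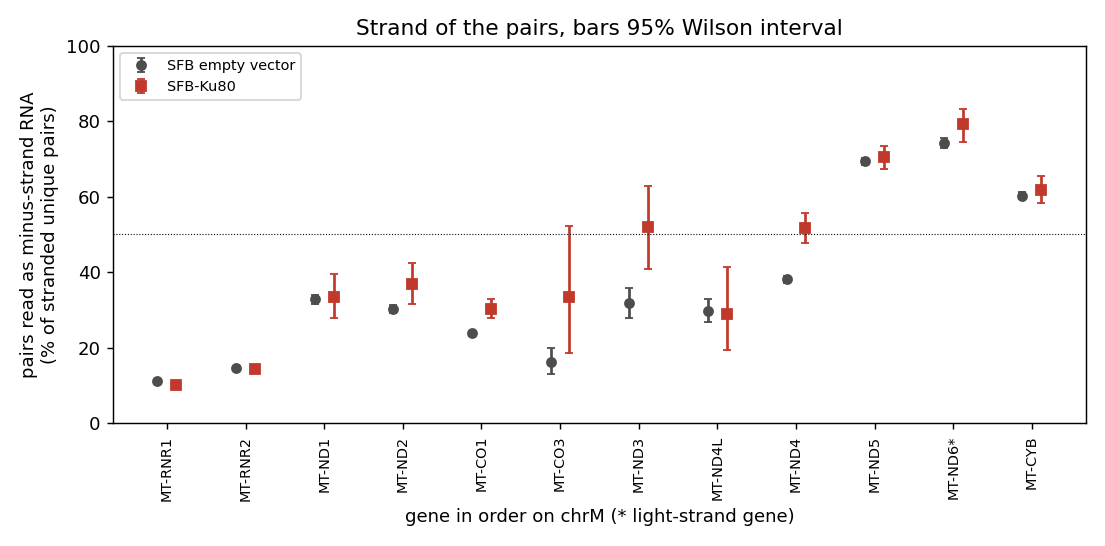
Share of stranded uniquely mapped pairs read as minus-strand RNA (vertical axis, percent) on the mitochondrial rRNA and countable mRNA genes in chrM order, for SFB empty vector (circles) and SFB-Ku80 (squares), with 95% Wilson intervals as bars. MT-ND5, MT-ND6 and MT-CYB lie above the dotted line at 50% in both libraries, from 60.3 to 79.2%, and the rRNA genes below 15%.

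Set against plus-strand RNA of the same gene, minus-strand RNA was less reduced in SFB-Ku80 on 9 of the 10 mRNA genes. This difference of log2 changes needs no scaling between the libraries. Its 95% counting interval lay above 0 for 5 genes and below 0 for none. MT-ND4 had 5780 plus-strand and 3558 minus-strand pairs in the vector control and 287 and 308 in SFB-Ku80, a difference of 0.80 (0.56 to 1.04). MT-CO1 had a difference of 0.48 (0.30 to 0.67), MT-ND2 of 0.42 (0.08 to 0.77), MT-ND3 of 1.22 (0.52 to 1.93) and MT-CO3 of 1.38 (0.17 to 2.60), the last from 9 minus-strand pairs in SFB-Ku80. On MT-ND5 the difference was 0.07 (-0.15 to 0.30), on MT-CYB 0.10 (-0.13 to 0.32), on MT-ND1 0.03 and on MT-ND4L -0.05, all with 0 inside the interval. MT-ND6, where minus-strand RNA is sense, had a difference of 0.39 with an interval whose lower end is at 0. The rRNA genes differed the other way, with -0.13 (-0.18 to -0.08) on MT-RNR1 and -0.05 (-0.08 to -0.02) on MT-RNR2. Antisense pairs were more frequent in SFB-Ku80 outside chrM as well. Over the 2215 features with at least 100 stranded pairs in both libraries the median sense share was 81.0% in the vector control and 76.1% in SFB-Ku80, and it was lower in SFB-Ku80 for 64.9% of them. The part of this general shift in the values on chrM was not tested. The 64.9% counts a lower sense share, which MT-ND6 did not have, at 74.3% in the vector control and 79.2% in SFB-Ku80. MT-CO3, MT-ND3 and MT-ND4L, with 27, 75 and 62 pairs in SFB-Ku80, were under its limit. The 9 of the 10 mRNA genes therefore have no like share over all features beside them.

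The strand columns also give values for the features on the minus strand that unstranded counting leaves at 0, while the features of MT-CO2, MT-ATP8 and MT-ATP6 stay at 0 there too. On CHM13_G0057514, from 6577 to 6665 inside MT-CO1, 2091 plus-strand and 740 minus-strand pairs were recorded in the vector control and 129 and 91 in SFB-Ku80. On LOFF_G0002906, from 10107 to 10180 inside MT-ND4L, the values were 925 and 394, and 36 and 23. Plus-strand pairs, which are sense for the enclosing mRNA, were the larger part on both features in both libraries. For LOFF_G0002906 in SFB-Ku80 this is not set by the counts, since the minus-strand share was 39.0% with an interval of 27.6 to 51.7%. Pairs on these features can also enter the strand columns of the enclosing mRNA gene. On MT-TS1, a minus-strand gene that adjoins MT-CO1, 729 plus-strand and 88 minus-strand pairs were recorded in the vector control, so most pairs there were antisense to the tRNA. On MT-TP 306 minus-strand and 86 plus-strand pairs were recorded in the vector control and 39 and 16 in SFB-Ku80, most of them sense, and MT-TM had 111 plus-strand and 33 minus-strand pairs, and 36 and 13, again mostly sense.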

How the data were processed

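The authors aligned read pairs with STAR 2.7.6a to CHM13 draft 1.1 and deposited raw counts per feature from featureCounts 2.0.2, and counts of uniquely mapped pairs from STAR, unstranded and per strand. By its header, the count table took in multimapping reads without regard to strand, from fragments of 18 bases or more whose mates both aligned. The rDNA bin tables were not used. Each group had 1 library.

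Features on chrM were matched to 37 RefSeq genes (GRCh38.p14) by position relative to the first gene and by length, within 1 base, and 36 had equal lengths. Names of nuclear genes, but no values, came from the supplementary table. Shares, Wilson and log-normal counting intervals and log2 ratios were computed in Python 3.11.15, with a pseudocount of 1, a limit of 100 summed counts and the counts outside 219 45S units as total. TMM factors were from edgeR 4.0.16. The ratios were checked on simulated data. No molecular identifiers are stated, so copies made by PCR are counted. The members and lists were chosen with earlier results of these data known. The named genes are the mRNA genes, the tRNA genes with the most counts or extreme ratios and those under the limit, the rRNA genes and the nuclear lists. All mitochondrial tRNAs came to be named. Sequences of these genes were not used here.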

Additional observations from a re-analysis of the deposited data

How the results depend on the processing

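The share of the 35 genes was lower in SFB-Ku80 under every alternative run, with a ratio of SFB-Ku80 to SFB empty vector of 0.0751 as reported. The ratio was 0.277 with uniquely mapped pairs, 0.253 and 0.290 with the first and second stranded columns, 0.0899 with counts outside the 45S units as denominator, 0.203 without the 2 chromosome 17 features as well, 0.0888 with all read pairs and 0.665 with the counts on chrM. The median log2 ratio of the mRNAs, -3.48 as reported, was -1.75 in uniquely mapped pairs, -3.74 with all counts, -2.99 with TMM factors, -2.96 with median-of-ratios size factors and -2.31 without the chromosome 17 features. The median of all tested features moved with the scaling as well, from -1.30 with all counts to 0.12 without the chromosome 17 features, against -1.04 as reported. Relative to the median gene, -2.44 as reported, it was -1.44 in uniquely mapped pairs, -2.92 with no filter, -1.71 with at least 1000 counts and -2.86 with at least 10 counts in each library. The number of lower genes, 10 as reported, was 19 with no filter, which adds tRNA genes of few counts, and 9 to 11 otherwise. No alternative gave a higher gene. MT-TM stood above the median gene under all alternatives run, from 0.08 with no filter to 1.29 with at least 1000 counts, a limit it does not itself reach. With no filter, and at 0.14 with at least 10 counts in each library, counting error (standard error 0.12) does not set it apart from the median gene. The sense share of minus-strand genes in SFB-Ku80, 70.3%, was 79.2% with genes of at least 100 pairs, which leaves MT-ND6 only. No paired analysis was possible because neither group has more than 1 library, and for the same reason none could be left out.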
